A study of Mus musculus with 9 samples.

Results

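The genes described here are Kit, its ligand gene Kitl, and Sohlh1 and Sohlh2, a pair of basic helix-loop-helix (bHLH) factors that regulate Kit. They were chosen by name, and all 4 were present among the 46078 gene identifiers of the count data. The study followed mouse spermatogonial stem cells (SSCs) into differentiation in culture and sequenced polyadenylated RNA in 9 libraries. The starting group, 0 h, held wild-type SSCs carrying EGFP (EGFP-SSCs), kept on mitomycin C-treated embryonic fibroblast feeders with GDNF, bFGF and EGF. For the 24 h and 48 h groups the same cells were mixed with an equal number of testicular somatic cells, taken from busulfan-exposed mouse testes at 3 to 7 days after birth. The mixed cells were cultured in α-MEM and knockout serum replacement (KSR) with BMP-4, BMP-7, retinoic acid, activin A, testosterone, FSH and bovine pituitary extract, and EGFP-positive cells were then sorted by flow cytometry. Medium, neighbouring cells and time therefore changed together between 0 h and the later groups and cannot be told apart. The paper describes sorting before sequencing only in general terms, so whether 0 h cells were sorted from their feeders is unclear. Each group held 3 libraries labelled as biological replicates of 1 SSC line, and whether they came from separate cultures is not given in the sources used here, so the p-values measure the spread between these libraries.

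KIT is a receptor tyrosine kinase of the type III family, and KIT ligand, also called stem cell factor, is made as a membrane-bound or a shed protein, in the testis mainly by Sertoli cells. Undifferentiated spermatogonia hold little KIT, and its appearance marks the step to differentiating spermatogonia, which need it to survive and divide. SOHLH1 and SOHLH2 bind E-box sequences, alone or as partners, and in the mouse testis both are needed for normal KIT expression and for spermatogonial differentiation. KIT is also made outside the germline, by Leydig cells and mast cells among others.

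The largest change among the 4 genes was in the receptor, a low-abundance transcript at 0 h and an abundant one at 24 h. Sohlh1 rose by about 4-fold and stayed high, Sohlh2 was abundant at every time, and Kitl was low at every time. By 48 h Kit had fallen from its 24 h level, while no change was called for Sohlh1 between those times. A gene was called at an adjusted p of 0.05 or less, with Benjamini-Hochberg adjustment over all genes tested. Of the 4 genes, 2 were called higher at 24 h than at 0 h, where 11.4% of the 17592 genes tested were called higher and 25.5% were called in either direction. The same pair was called higher at 48 h than at 0 h, where 13.0% of 17755 genes were called higher and 31.6% in either direction.

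All 4 genes are placed here on the GRCm38 build. Kit (ENSMUSG00000005672) lies on the plus strand of chromosome 5, from 75574916 to 75656722, and Kitl (ENSMUSG00000019966) on the plus strand of chromosome 10, from 100015630 to 100100416. Sohlh1 (ENSMUSG00000059625) is a short gene on the minus strand of chromosome 2, from 25842995 to 25847248, and Sohlh2 (ENSMUSG00000027794) lies on the plus strand of chromosome 3, from 55182028 to 55209957. In the GENCODE M21 annotation no other gene overlapped any of them on either strand. No stretch of 75 or more bases of their transcripts matched a transcript of another gene at 97% identity or more. Counts were made per gene, so the 8 annotated transcripts of Kit, and the 6 of Kitl, which include the membrane-bound and shed forms of the ligand, were not told apart.

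The promoters of the receptor and of the Sohlh genes are shown because the Sohlh factors bind E-boxes (CANNTG). Each stretch runs 5′ to 3′ on the gene's strand up to the base before its first annotated exon, taken from the RefSeq promoter windows on GRCm38.p6, and capitals mark every E-box.
Kit, chr5:75574737-75574915, plus strand: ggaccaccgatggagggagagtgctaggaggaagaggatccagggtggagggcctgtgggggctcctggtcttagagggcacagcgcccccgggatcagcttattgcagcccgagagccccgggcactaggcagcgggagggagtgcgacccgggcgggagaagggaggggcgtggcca
Sohlh1, chr2:25847249-25847498, minus strand: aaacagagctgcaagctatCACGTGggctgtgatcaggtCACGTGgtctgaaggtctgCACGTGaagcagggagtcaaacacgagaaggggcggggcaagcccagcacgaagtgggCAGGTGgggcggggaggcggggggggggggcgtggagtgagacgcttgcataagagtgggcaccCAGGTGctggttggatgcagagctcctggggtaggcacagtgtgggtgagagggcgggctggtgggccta
Sohlh2, chr3:55181794-55182027, plus strand: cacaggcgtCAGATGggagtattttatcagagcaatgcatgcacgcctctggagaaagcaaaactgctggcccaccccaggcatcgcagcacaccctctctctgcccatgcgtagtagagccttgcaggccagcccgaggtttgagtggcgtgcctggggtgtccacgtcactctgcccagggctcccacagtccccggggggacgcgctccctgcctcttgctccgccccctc
The Sohlh1 stretch held 5 E-boxes, 3 of them CACGTG and 2 CAGGTG. In the full windows of 300 bases, from 250 before to 50 after each start site, at least 1 CANNTG was present in 72.3% of 32817 windows and 3 or more in 17.6%. At least 1 CACGTG was found in 7.15% of the windows, and 3 or more in 29 windows, which is 0.0884%. The CACGTG copies upstream of Sohlh1 lay at -231, -211 and -192 from its start site, and the CAGGTG copies at -134 and -70. Kit had no E-box in the stretch printed above and 1 in its window, CACTTG at +9. The Sohlh2 window held 1 E-box, CAGATG at -241, and the Kitl window 1, CATTTG at +11, beside a TATAAA at -25. AGGTCA, the core of a retinoic acid receptor element, was present once in the Sohlh1 window, at -215, where it overlapped the CACGTG at -211, and in 16.3% of all windows. CANNTG and CACGTG read the same on both strands, the other motifs were searched on both strands, and a match is only a match of letters.

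Library totals ran from 16825251 to 22201892 counts. Levels are given as CPM, counts scaled to library size with TMM factors, and for comparisons between genes as FPKM, which divides CPM by the summed exon length in kilobases. Germ cell markers were abundant throughout, with summed CPM over 7 genes of 1778 to 2782 at 0 h, 2106 to 2327 at 24 h and 2070 to 2277 at 48 h. Several lists of somatic markers were higher in the sorted co-cultures than at 0 h, while endothelial markers summed to 44.8 to 49.2 CPM at 0 h and to 12.3 to 18.8 CPM later, a sum carried by Kdr and Pecam1, with Tek called higher at 24 h, and macrophage markers summed to under 3 CPM in each library. Fibroblast or stromal markers summed to 260.8 to 357 CPM at 0 h, 2096 to 2425 CPM at 24 h and 2809 to 3104 CPM at 48 h. That sum was carried by Col1a1, Col1a2 and Col3a1, with means of 1112, 697 and 355 CPM at 24 h. Lum, on the same list, was at 1.30, 1.18 and 2.62 CPM at 0, 24 and 48 h. Peritubular myoid markers summed to 13.8 to 15.7 CPM, 146 to 208 CPM and 263 to 321 CPM at 0, 24 and 48 h. Among them Des did not rise, with means of 4.32, 3.07 and 4.18 CPM. In a bulk library, fewer cells of a type and less RNA per cell cannot be told apart.

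Kit was counted at 9.92, 7.94 and 7.58 CPM in replicates 1, 2 and 3 at 0 h, which rest on 159, 160 and 152 counts. The 24 h libraries held 592, 583 and 528 CPM, from 12054, 10892 and 10810 counts. At 48 h the values were 321, 335 and 334 CPM, from 6128, 7705 and 6590 counts. The groups were far apart, with every 24 h library above every 48 h library and all of these far above the 0 h libraries. The log2 fold change from 0 h to 24 h was 6.08 (standard error 0.16, 95% interval 5.70 to 6.46), a 67.7-fold rise (adjusted p = 2.68e-06 by edgeR quasi-likelihood). From 0 h to 48 h it was 5.28 (standard error 0.15), a 38.9-fold rise (the same edgeR test, adjusted p = 4.58e-06). Both comparisons share the 0 h libraries. Ranked by log2 fold change, Kit was at place 19 of 17592 genes at 24 h and 41 of 17755 at 48 h, and Sohlh1 at places 331 and 514. Between 24 h and 48 h Kit fell by 0.79 on the log2 scale (standard error 0.07, 95% interval -0.94 to -0.65), a 1.73-fold decrease (adjusted p = 0.000187 by edgeR quasi-likelihood).

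**Figure D1:**
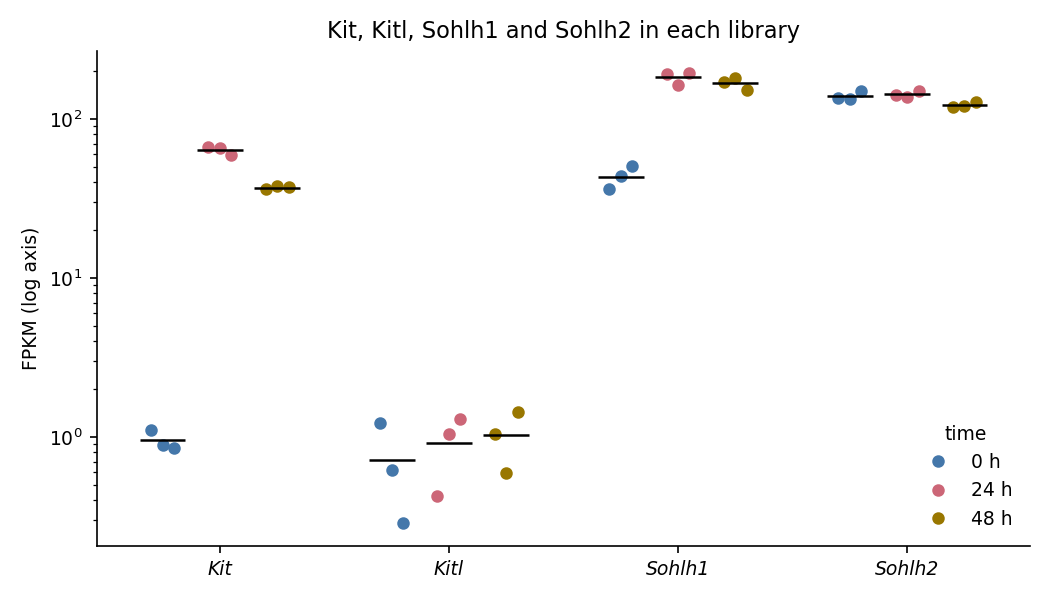
Level of Kit, Kitl, Sohlh1 and Sohlh2 in FPKM on a log axis, by hours of co-culture; each point is a library and each bar the mean of 3. Kit climbed from about 0.951 to 63.7 FPKM, Sohlh1 from 43.2 to 183 FPKM, while Kitl stayed between 0.287 and 1.44 FPKM with overlapping groups and Sohlh2 between 118 and 150.4 FPKM.

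Leydig cell markers, from a cell type that makes KIT, had a higher sum after 0 h, at lower levels than Kit. The 7 Leydig genes summed to 4.49 to 6.80 CPM at 0 h, 24.6 to 38.6 CPM at 24 h and 25.3 to 32.6 CPM at 48 h, against Kit itself at 528 to 592 CPM at 24 h. Only 3 of the 7 could be tested against 0 h. Of these, 2 were called higher at 24 h and 3 at 48 h, against 11.4% and 13.0% of all genes. From 24 h to 48 h, when Kit fell, Star was at 0.12, Hsd3b1 at 0.28 and Cyp11a1 at -0.52 on the log2 scale, and these did not pass the threshold (edgeR, adjusted p = 0.7, 0.47 and 0.0819; unadjusted p = 0.554, 0.305 and 0.0227). Hsd3b6, a steroid dehydrogenase, and Lhcgr, the luteinizing hormone receptor, were at or under 3 counts. The mast cell list summed to at most 0.0498 CPM at 0 h, 0.197 CPM at 24 h and 0.419 CPM at 48 h, and none of its 6 genes could be tested. The part of somatic cells in the Kit change was not tested.

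Kitl, the ligand gene, was at 7.24, 3.67 and 1.69 CPM in replicates 1, 2 and 3 at 0 h, from 116, 74 and 34 counts. At 24 h it was at 2.51, 6.15 and 7.67 CPM, and at 48 h at 6.18, 3.52 and 8.51 CPM. The groups overlapped in every comparison. The log2 difference from 0 h was 0.39 at 24 h (standard error 0.57, 95% interval -0.94 to 1.71) and 0.53 at 48 h (standard error 0.53, 95% interval -0.72 to 1.78). Neither passed the threshold (adjusted p = 0.681 and 0.5 by edgeR quasi-likelihood), and the intervals leave room for changes of more than 2-fold. The difference between 48 h and 24 h was 0.14 (standard error 0.40, the same edgeR test, adjusted p = 0.834), and it was negative without replicate 1 at 24 h, at -0.21, or without replicate 3 at 48 h, at -0.19.

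Kitl has the lowest GC content of the 4 genes, at 39.3% in its longest transcript, against 48.5% for Kit, 48.3% for Sohlh2 and 58.1% for Sohlh1. At 0 h its log2 CPM deviated from the group mean by 1.00, 0.04 and -1.03 in replicates 1, 2 and 3. The median of the 3633 genes of lowest GC content (44.0% or less) deviated by 0.42, 0.05 and -0.47 in the same libraries. At 24 h Kitl deviated by -0.95, 0.32 and 0.63 and the low-GC genes by -0.10, 0.06 and 0.06, a far smaller spread. These deviations are centred within groups of 3, so they are not independent of each other and are given as a description. With offsets for GC content and length, the standard error of the Kitl difference at 24 h was 0.38 in place of 0.57, and at 48 h 0.32 in place of 0.53. The drop was not particular to Kitl, since the same offsets took the standard error at 24 h from 0.16 to 0.12 for Kit, from 0.15 to 0.10 for Sohlh1 and from 0.10 to 0.08 for Sohlh2. The Kitl differences stayed short of the threshold with the offsets, and the part of base composition in its spread was not tested. As a further measure, Sertoli cell markers, from the cells that make KIT ligand in the testis, summed over 8 genes to 15.2 to 19.3 CPM at 0 h, 52.8 to 84.1 CPM at 24 h and 66.9 to 70.8 CPM at 48 h, with Fshr, the FSH receptor, at or under 3 counts. The list did not move as one: of 7 genes tested at 24 h, 6 were called higher and Sox9, a Sertoli transcription factor, was called lower, from 11.7 ± 1.53 to 6.64 ± 1.05 CPM (SD, n = 3). This is 100% called, against 25.5% of all genes, 11.4% higher and 14.2% lower. At 48 h 6 were called higher and 0 lower, with Sox9 not called, or 85.7% against 31.6% of all genes. Amh, the anti-Müllerian hormone gene, was at 0.133 ± 0.126, 5.79 ± 2.16 and 0.829 ± 0.347 CPM at 0, 24 and 48 h (SD, n = 3).

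**Figure D2:**
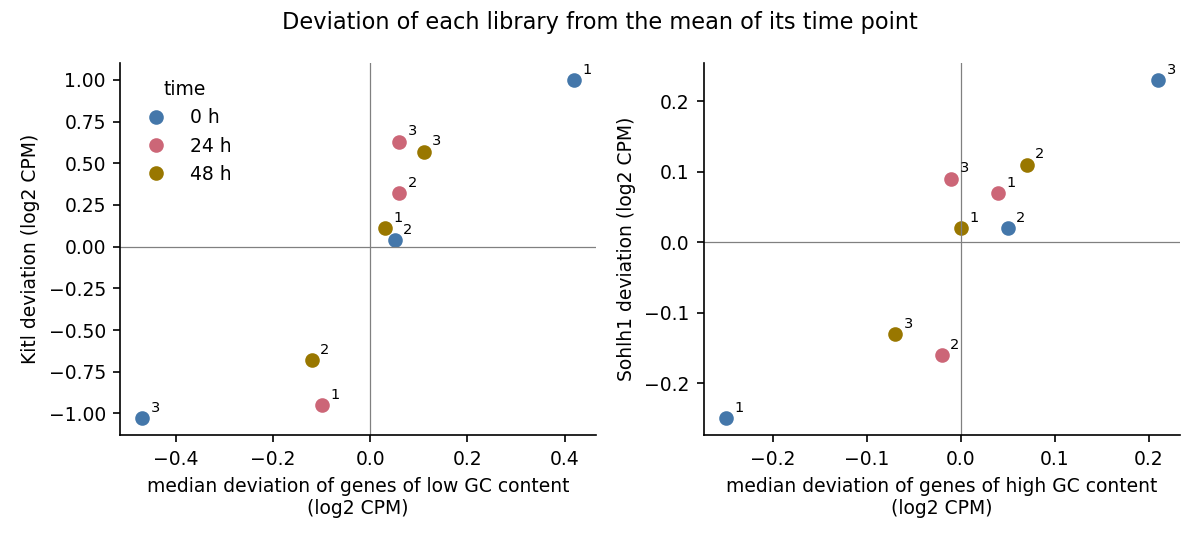
Deviation of each library's log2 CPM from its group mean, with replicate numbers beside the points. Kitl is plotted against the median deviation of the 3633 genes of lowest GC content. Sohlh1 is plotted against that of the 3633 genes of highest GC content (55.5% or more). Kitl spreads from 1.00 in replicate 1 at 0 h to -1.03 in replicate 3, where the low-GC genes are at 0.42 and -0.47.

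Sohlh1, the factor with the larger change, was at 46.4, 56.0 and 64.7 CPM at 0 h, from 744, 1128 and 1299 counts. At 24 h it was at 247, 211 and 249.7 CPM, and at 48 h at 219.5, 233 and 197 CPM. The 24 h and 48 h libraries overlapped and all stood above the 0 h libraries. The log2 fold change was 2.10 at 24 h (standard error 0.15, 95% interval 1.74 to 2.45), a 4.27-fold rise (adjusted p = 0.000103 by edgeR quasi-likelihood). At 48 h against 0 h it was 1.96 (standard error 0.15), a 3.89-fold rise (the same edgeR test, adjusted p = 0.000106). Between 24 h and 48 h the difference of -0.13 (standard error 0.09, 95% interval -0.33 to 0.06) did not pass the threshold (edgeR, Benjamini-Hochberg adjusted p = 0.29), and with offsets for GC content and length it was 0.06.

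Sohlh2, its partner, was at 322, 313 and 356 CPM at 0 h, at 333, 324 and 354 CPM at 24 h, and at 279, 287 and 301 CPM at 48 h. The 0 h and 24 h libraries overlapped, while each 48 h library was below all of the others. Between 0 h and 24 h the log2 difference was 0.04 (standard error 0.10, 95% interval -0.19 to 0.28), so a change of the size seen for Sohlh1 lies outside its interval (adjusted p = 0.812 by edgeR quasi-likelihood). At 48 h against 0 h the difference was -0.19 (standard error 0.10, 95% interval -0.43 to 0.04), which did not pass the threshold although the groups did not overlap (the same edgeR test, adjusted p = 0.183). From 24 h to 48 h Sohlh2 fell by 0.23 on the log2 scale (standard error 0.06), a 1.18-fold decrease (adjusted p = 0.0266 by edgeR quasi-likelihood). That call was lost without replicate 1 or 3 at 24 h or without replicate 1 or 2 at 48 h, with log2 differences of -0.24, -0.18, -0.19 and -0.23, and also in a fit to all 9 libraries, at -0.22 (edgeR, adjusted p = 0.165). In that comparison Kit and Sohlh2 were the genes called of the 4, both lower, where 21.3% of 17499 genes were called in either direction, 8.61% higher and 12.7% lower.

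**Figure D3:**
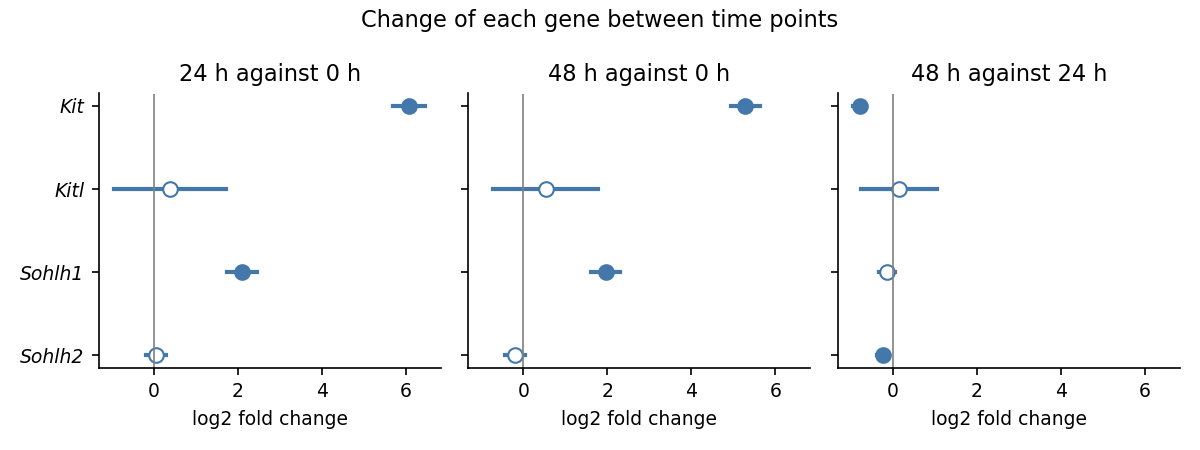
Log2 fold change of each of the 4 genes in the 3 comparisons, with 95% confidence intervals from edgeR; filled points passed an adjusted p of 0.05. Kit (6.08 and 5.28) and Sohlh1 (2.10 and 1.96) stand well above 0 against 0 h, and the wide Kitl intervals cross 0 in all 3 comparisons.

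Per length, the order of the 4 genes changed between 0 h and 24 h. At 0 h the mean level was 139.7 ± 9.46 FPKM for Sohlh2, 43.2 ± 7.11 for Sohlh1, 0.951 ± 0.141 for Kit and 0.711 ± 0.475 for Kitl (SD, n = 3). Sohlh2 was above Sohlh1 and Sohlh1 above the others in each library, while the Kit and Kitl levels overlapped. At 24 h Sohlh1 came first with 183 ± 16.8 FPKM, before Sohlh2 with 142.6 ± 6.56, Kit with 63.7 ± 3.88 and Kitl with 0.921 ± 0.449 (SD, n = 3). The same order was found at 48 h, with 168 ± 14.0, 122 ± 4.71, 37.0 ± 0.861 and 1.03 ± 0.422 FPKM (SD, n = 3), and at neither time did neighbours in the order overlap. Dividing by the longest transcript instead raised the Kit means to 1.62, 108 and 62.9 FPKM and left the order as it was.

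The ratio of Sohlh1 to Sohlh2 in FPKM was 0.309 ± 0.0383 at 0 h, 1.28 ± 0.0847 at 24 h and 1.38 ± 0.155 at 48 h (SD, n = 3). Within single libraries it ran from 0.265 to 0.334 at 0 h and from 1.19 to 1.49 at 24 h and 48 h, so Sohlh1 was below its partner in every 0 h library and above it in every later one. The receptor-to-ligand ratio in FPKM was 0.909 to 2.97 at 0 h, 45.7 to 157 at 24 h and 26.0 to 63.1 at 48 h. Among 18161 genes, Kit had a higher FPKM than 24.6% at 0 h, 95.8% at 24 h and 91.5% at 48 h. Sohlh1 moved from 92.2% to 98.9% and 98.8%, Sohlh2 stayed at 98.2% to 98.5%, and Kitl stayed at 20.6% to 26.0%.

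Signalling genes that act downstream of KIT were described by 3 lists with 57 genes, all tested. They changed in both directions, with 8 rises and 13 falls at 24 h and, against the same 0 h libraries, 8 rises and 15 falls at 48 h. After 24 h, 5 more rises and 14 falls were called. The share of the list called was 36.8% at 24 h and 40.4% at 48 h, against 25.5% and 31.6% of all genes tested, and 33.3% between 24 h and 48 h, against 21.3%. The median log2 difference of the list was -0.03, -0.15 and -0.06 in the 3 comparisons, against 0.01, 0.02 and -0.00 for all genes. Scaling by library size alone shifted the median of all genes by 0.11 against 0 h and turned the split of the list to 10 rises and 8 falls at 24 h, and to 13 rises and 10 falls at 48 h. The count of 21 called at 24 h was 11, 8, 9 and 10 without replicate 2 at 0 h or replicate 1, 2 or 3 at 24 h. In the same fits the 4494 calls over all genes became 2931, 2610, 2607 and 2806. The 23 called at 48 h came to 14, 13, 13 and 14 without replicate 2 at 0 h or replicate 1, 2 or 3 at 48 h. There the 5602 calls over all genes became 4011, 3471, 3815 and 3624. The share of the list was not set against that of all genes in these fits, so an excess over it is not shown there.

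The kinases, adaptors and PI3K genes that bind the activated receptor or relay its signal were split, with 4 rises and 6 falls among 28 genes at 24 h, which is 35.7% called against 25.5% of all genes. With library size alone there were 5 rises and 4 falls. Mtor, a growth-controlling kinase below AKT, rose from 281.6 ± 8.53 to 617 ± 35.7 and 444.5 ± 12.8 CPM (SD, n = 3), with log2 fold changes of 1.15 and 0.66. Akt1, the kinase that PI3K products recruit, rose with 0.94 and 0.79, and Lyn, a SRC-family kinase, rose with 1.38 at 24 h. Lyn was low, with 7 to 17 counts per library at 0 h and 26 to 37 at 24 h. Fyn, another SRC-family kinase, fell with -1.17 at 24 h and -0.96 at 48 h, and Pik3cd, a catalytic PI3K subunit, fell with -0.99 and -1.36. Sos2, an exchange factor for RAS, fell with -1.28 at 24 h and was at -0.44 at 48 h, where it did not pass the threshold. By 48 h, 5 genes of this list had risen and 6 had fallen, or 39.3% called against 31.6% of all genes, and library size alone turned this to 7 rises and 3 falls.

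In the RAS-ERK and JAK-STAT list of 15 genes, 3 rose and 2 fell by 24 h (33.3% called, against 25.5% of all genes), and 1 rose and 3 fell by 48 h (26.7%, below the 31.6% of all genes). The split at 48 h was 3 and 3 with library size alone, where 5765 of 17755 genes were called. With GC and length offsets it was 4 and 4, where 7556 of 17660 genes were called. The paired MEK genes of the ERK cascade moved apart, with Map2k2 higher by 0.55 and 0.58 and Map2k1 lower by -0.45 and -0.69 on the log2 scale at 24 h and 48 h. Stat3, a transcription factor activated through JAK kinases, was at -0.16 at 24 h, which did not pass the threshold, and fell with -0.86 at 48 h.

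Of 14 negative regulators of KIT signalling, 5 fell and 1 rose by 24 h, and 6 fell and 2 rose by 48 h. That is 42.9% and 57.1% called, against 25.5% and 31.6% of all genes, of which 14.2% and 18.5% were called lower. With library size alone these became 3 falls and 2 rises at 24 h, then 4 falls and 3 rises at 48 h. Sh2b3, an adaptor (LNK) that restrains KIT and cytokine receptors, fell from 351.5 ± 41.1 to 58.5 ± 3.94 and 57.5 ± 2.19 CPM (SD, n = 3). Its log2 fold changes were -2.57 and -2.61 (adjusted p = 2.63e-05 and 1.54e-05 by edgeR quasi-likelihood). Spred1 and Spred2, which hold back RAS-ERK signalling, fell with -1.77 and -1.12 at 24 h and with -1.92 and -2.25 at 48 h. Socs1, a feedback inhibitor that binds KIT, rose with 0.98 at 24 h, and Grb10, an adaptor that binds activated receptors, rose with 1.09 at 48 h. Ptpn6, the phosphatase SHP-1 that acts on KIT, fell with -0.52 and -1.40. Adam17, a protease known to shed KIT and its ligand from the cell surface, fell with -0.68 and -0.62.

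**Figure D4:**
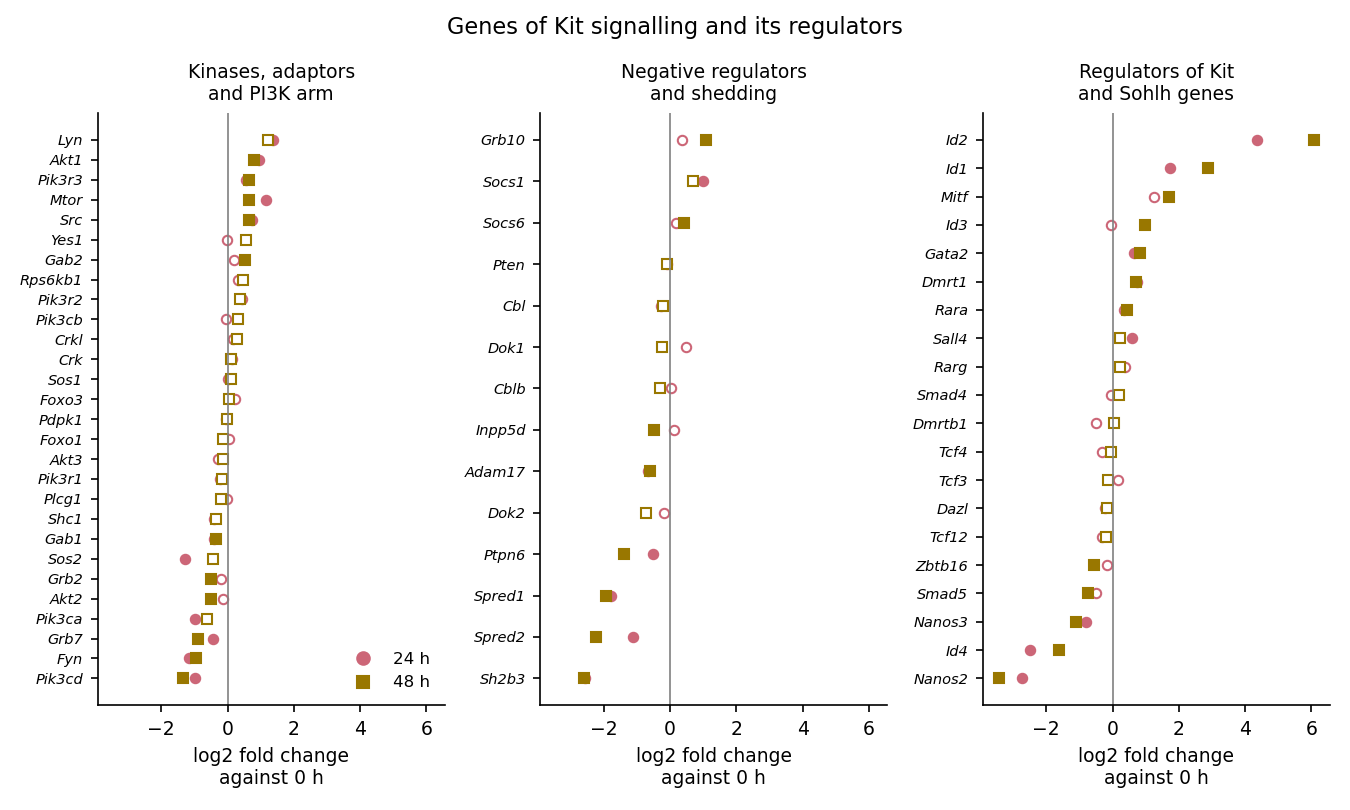
Log2 fold change at 24 h (circles) and 48 h (squares) against 0 h for 28 kinases, adaptors and PI3K genes, 14 negative regulators and 20 regulators and partners of Kit and the Sohlh genes, a panel each; filled symbols passed an adjusted p of 0.05 in edgeR. Sh2b3 (-2.57 and -2.61), Spred1 and Spred2 lie farthest to the negative side among the negative regulators. Among the kinases, Lyn, Mtor (1.15 and 0.66) and Akt1 lie on the positive side, while Id2 (4.36 and 6.08) stands highest among the regulators.

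Regulators and partners of Kit and the Sohlh genes formed a list of 21, of which Tal1 was not tested. Of the other 20, 5 rose and 3 fell by 24 h, and 7 rose and 5 fell by 48 h, which is 40% and 60% called against 25.5% and 31.6% of all genes. With GC and length offsets, 8 rose and 6 fell by 24 h, where 6268 of 17508 genes were called. Nanos2, an RNA-binding repressor of differentiation, fell from 5.30 ± 0.671 to 0.787 ± 0.169 and 0.482 ± 0.201 CPM (SD, n = 3), with log2 fold changes of -2.72 and -3.44. Zbtb16 (PLZF), a transcriptional repressor of Kit, was at -0.16 at 24 h, which did not pass the threshold, and fell with -0.57 at 48 h. Dmrt1, which controls entry into meiosis and spermatogonial identity, rose with 0.74 and 0.70. ID proteins bind E proteins, the general bHLH partners, and prevent DNA binding. Id1 rose with 1.74 and 2.89 and Id2 with 4.36 and 6.08, while Id4 fell with -2.50 and -1.63. Id3 was at -0.06 at 24 h, which did not pass the threshold, and rose with 0.97 by 48 h, from 64.7 ± 8.65 to 127 ± 6.70 CPM (SD, n = 3). The E-protein genes Tcf3 and Tcf12 were not called against 0 h.

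Of the genes known to lie downstream of SOHLH1 or SOHLH2 in the ovary, 6 of 9 could be tested at 24 h and 7 at 48 h, and 1 rose and 2 fell at each time. These are 50% of 6 and 42.9% of 7 genes, against 25.5% and 31.6% of all genes, and rest on 3 calls each. Lhx8, a LIM homeobox factor of oocytes, rose from 1.23 ± 0.627 to 12.8 ± 0.921 and 27.6 ± 1.91 CPM (SD, n = 3), with log2 fold changes of 3.42 and 4.51 (adjusted p = 0.000416 and 8.33e-05 by edgeR quasi-likelihood). The egg coat genes Zp1 and Zp3 fell with -1.91 and -1.27 at 24 h and with -2.10 and -2.34 at 48 h. Zp1 was low, with 21 to 29 counts per library at 0 h, 3 to 9 at 24 h and 5 to 8 at 48 h. Figla and Nobox, oocyte transcription factors, and Taf4b, a TFIID subunit gene, were not called at either time.

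In the list of differentiating spermatogonia, which includes Kit, Sohlh1 and Sohlh2, 6 of 12 genes rose and 1 fell relative to 0 h at both times, while 6 fell and 1 rose from 24 h to 48 h. This is 58.3% called each time, against 25.5%, 31.6% and 21.3% of all genes, and Kit and Sohlh1 are 2 of the 6 rises. Stra8, a gene induced by retinoic acid, had the largest log2 fold changes of the list, 8.48 and 7.56. Rec8, a meiotic cohesin, rose with 2.31 at 24 h and was also called higher at 48 h, and Ccnd2, a cyclin, fell with -0.91 and -2.02. The fall of Kit after 24 h (-0.79) stood beside falls of Stra8 (-0.92) and Rec8 (-0.81).

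Among the type III receptor tyrosine kinases and ligands, the family to which KIT belongs, 6 of 12 genes tested rose and 4 fell by 24 h, and 5 rose and 3 fell by 48 h. This is 83.3% and 66.7% called, against 25.5% and 31.6% of all genes, and Kit is itself 1 of the rises. Pdgfrb rose with 2.09 and 2.21 and Csf1, the ligand of CSF1R, with 1.47 and 2.00. Pdgfd also rose, from 0 to 4 counts per library at 0 h to 11 to 15 counts at 24 h and 29 to 39 counts at 48 h. The ligand gene Pdgfb fell from 267.5 ± 55.9 to 55.6 ± 2.46 and 31.1 ± 1.92 CPM (SD, n = 3), with log2 fold changes of -2.25 and -3.10. Pdgfa fell with -1.55 and -2.14, and Flt3, a receptor of the same family, with -1.49 and -1.21. These rises stood beside the rise in the summed fibroblast and myoid markers given above, and the part of those cells was not tested.

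The annotated neighbours of Kit are also receptor genes, and Pdgfra belongs to the type III list above. Pdgfra, 376700 bases away and also 1 of the stromal markers, rose with 0.72 at 24 h and was at 0.41 at 48 h, which did not pass the threshold. Kdr, on the other side at 276104 bases, and also an endothelial marker, fell with -2.36 and -3.34, so the genes beside Kit moved in opposite directions at 24 h. Kcnt1, a potassium channel gene 16485 bases from Sohlh1, rose from 5.17 ± 0.591 to 35.5 ± 2.67 and 22.4 ± 2.84 CPM (SD, n = 3), with log2 fold changes of 2.79 and 2.11. Ccdc169 and Dclk1, beside Sohlh2, were not called in any comparison, and the genes beside Kitl were too low to be tested.

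The profiles closest to each of the 4 genes were found among 12612 candidates by the root mean square difference in log2 CPM over the 9 libraries, after subtracting each gene's 0 h mean. For Kit they were Hsd3b1 (0.57), Cyp11a1 (0.69) and Acta2 (0.74), of which the first pair are Leydig cell markers and the last a myoid marker. Their means at 24 h were 2.31, 4.34 and 44.7 FPKM, against 63.7 FPKM for Kit. At 48 h they were 2.83, 3.05 and 76.4 FPKM, against 37.0 FPKM for Kit, so Acta2 was then above Kit. In CPM their means were 4.29, 20.9 and 98.0 at 24 h, and 5.25, 14.7 and 168 at 48 h. The mean of Cyp11a1 was thus lower at 48 h than at 24 h, as for Kit, though not called. Those of Hsd3b1 and Acta2 were not lower. In addition, Hsd3b1 was at 0 in every 0 h library, so its distance depends on the prior count of 2. For Sohlh1 the closest were Pld6 (0.13), a mitochondrial phospholipase gene of the piRNA pathway, Emilin1 (0.16) and Eef2k (0.17). Pld6 had means of 8.97, 34.9 and 34.0 CPM at 0, 24 and 48 h. Sohlh2 lay closest to Maged1 (0.04), Phf7 (0.05) and Med17 (0.05), and Kitl to Gm14296 (0.24), Upf2 (0.25) and Slf1 (0.28).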

How the data were processed

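Read counts per gene were deposited by the authors for 3 libraries at each of 0, 24 and 48 h; their processing notes name fastp, HISAT2, featureCounts and GRCm38. The strand setting and annotation release are not given in the sources used here. Of 46078 identifiers, 45229 matched GENCODE M21, and the other 849 held at most 0.121% of a library's counts.

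Genes that passed edgeR's expression filter were tested over the 6 libraries of each comparison with TMM factors and edgeR's quasi-likelihood test (edgeR 4.0.16, R 4.3.3), two-sided, with Benjamini-Hochberg adjustment over all genes tested and a threshold of 0.05. All 4 members passed the filter in each comparison. The script was tested on simulated data. CPM and FPKM were computed here from the counts, FPKM with exon-union lengths. GC content came from each gene's longest transcript. BLAST 2.17.0 compared transcripts. The members and lists were chosen with earlier results of these data known. From each list, up to 3 called genes in each direction with the largest change were named, plus those needed for a role; the 3 closest profiles and the nearest coding gene on each side were also given. Some genes this rule would name are not reported here. Alternatives were DESeq2 1.42.0, other size factors, library size alone, other count filters, 1 fit to all libraries, a replicate block, GC and length offsets (5 and 4 spline degrees of freedom), transcript length, and each library left out. Flt3l was not analysed here. Replicate pairs differed beyond sampling noise, with chi-square per degree of freedom of 7.13 or more. The pairs differed most at 0 h, at 35.5 to 81.4, against 7.97 to 13.4 at 24 h and 7.13 to 26 at 48 h.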

Additional observations from a re-analysis of the deposited data

How the results depend on the processing

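Over 15 alternatives for each of 12 log2 differences of the 4 genes, 167 of 180 values kept their direction and their side of the threshold, 6 lost the call and 7 turned in sign. Kit and Sohlh1 kept their calls against 0 h in each of them. Leaving out single libraries gave 6.03 to 6.21 and 5.24 to 5.41 for Kit against 0 h, -0.83 to -0.75 for Kit after 24 h, and 1.98 to 2.24 and 1.84 to 2.11 for Sohlh1. The 6 lost calls were those of Sohlh2 at 48 h against 24 h: -0.22 when the 9 libraries were fitted together, -0.23 under the replicate block (edgeR, adjusted p = 0.0514), and 4 of the 6 fits without a library, which ranged from -0.27 to -0.18 (edgeR, adjusted p = 0.0382 to 0.16). The values that turned in sign had not been called. They were Kitl at 48 h against 24 h, at -0.11 with GC and length offsets, -0.07 with these and the block, and -0.21 to 0.50 without single libraries; Sohlh1 in the same comparison, at 0.06 with the offsets and 0.06 with the block added; and Sohlh2 at 24 h, at -0.00 to 0.13 without single libraries. The causes were not tested.

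Genes called without single libraries numbered 2607 to 6023 at 24 h against 0 h (4494 with all), 3471 to 7116 at 48 h (5602) and 1857 to 4356 between 24 h and 48 h (3732), and 1043 in that comparison when the 9 libraries were fitted together. KIT signalling genes called numbered 8 to 25, 13 to 27 and 14 to 22 without single libraries. With the replicate block they numbered 11 at 24 h and 14 at 48 h. When the 9 libraries were fitted together they numbered 8 after 24 h. With GC and length offsets they numbered 35 at 48 h, where 7556 of 17660 genes were called. Library size alone moved the share of higher calls from 44.6% to 57.1% at 24 h and from 41.2% to 52.8% at 48 h, and 1 fit to all libraries moved it from 40.3% to 27.3% between 24 h and 48 h.

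The replicate block was tried because the groups share replicate numbers. Deviations of same-numbered libraries correlated at -0.28 to 0.20 over genes. These deviations are centred within groups of 3, so the correlations cannot decide whether libraries were paired, and the labels give only a shared number. The block left 3007, 4013 and 2497 genes called in the 3 comparisons. Kitl had 34 to 168 counts per library. Kit at 0 h had 152 to 160 counts with a standard error of 0.16 at 24 h against 0 h, where that of Kitl was 0.57.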
